A study of Mus musculus with 8 samples.

Results

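Cohesin is a ring-shaped protein complex that holds sister chromatids together and draws out chromatin loops, and Smc3 is one of its core subunits. In blood stem and progenitor cells, loops held by cohesin bring enhancers to the genes they act on, and cohesin genes are among those mutated in myeloid leukemia. ATAC-seq uses a transposase to cut and tag accessible DNA, so a peak marks chromatin that the enzyme could reach. The regions described here are those whose peaks followed the Smc3 allele, whatever the Flt3 genotype: they had a peak in every library from mice with an Smc3 deletion and in no library from mice without one, or the reverse.

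The series holds 8 libraries from c-Kit+ bone marrow cells of mice, 2 for each of 4 genotypes. Controls were Smc3 fl/+ mice that lacked Mx1-Cre. Smc3 del/+ mice had Mx1-Cre, an interferon-inducible recombinase that acts in many blood cells, and had lost an Smc3 allele. Flt3-ITD mice carried the internal tandem duplication that activates the Flt3 receptor kinase, and their titles also mark them as positive for Mx1-Cre. Smc3 fl/del Flt3-ITD mice joined an Smc3 deletion to the duplication. The genotype label of this group reads fl/del and the title reads heterozygous, so the state of its other Smc3 allele is not settled. All groups, controls included, had received PIpC, the inducer of Mx1-Cre, 4 weeks before marrow was taken, and 50000 cells went into each library. Age and sex are not given, c-Kit selection leaves a mixture of progenitors, and the labels do not say outright that libraries of a genotype came from different mice. The side with the deletion was thus Mx1-Cre positive in all 4 libraries, while the side without it was mixed, with 2 libraries lacking Cre and 2 marked as having it.

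Peaks of all libraries were merged wherever they overlapped by at least 1 bp, which gave 114533 regions, 109822 of them on chromosomes 1 to 19. Members were chosen by their peak calls alone: 302 of the 109822 autosomal regions met the rule. Of these, 141 (0.128%) had a peak in all 4 libraries with Smc3 deletion and none without, and 161 (0.147%) had a peak in all 4 libraries without the deletion and none with it. Because every call of all 8 libraries entered the rule, these counts are descriptions and carry no test. One conflict in the labels bears on all of them. In free text, the Smc3 del/+ libraries are described as Flt3-ITD and the reverse, against their titles and genotype labels. Groups follow title and genotype here. Under the descriptions the same rule becomes the Flt3-ITD contrast given below and would select its 975 and 1277 regions. None of these can be among the 302, because the call patterns differ.

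Coordinates are those of the deposited files, in the mouse build mm9, counted from 1. Neither sequence nor annotation of that build was used, so no gene, exon, intron or DNA sequence is assigned to a region, and marker genes of c-Kit+ cells were not analysed here. The lists held between 61953 peaks (Smc3 del/+ replicate 1) and 80698 (Smc3 fl/del Flt3-ITD replicate 1). Both Smc3 fl/del Flt3-ITD lists were longer than all 6 others. Read depth is unknown for every library. A peak lost from such bulk cells can mean fewer cells of a type or less access per cell, and these cannot be told apart.

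**Figure D1:**
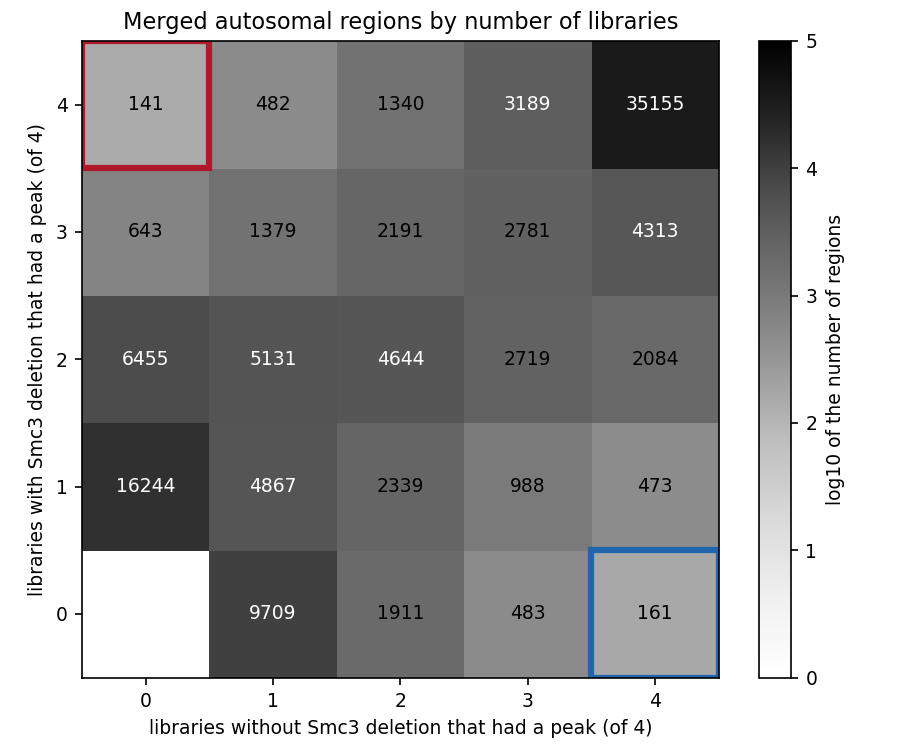
Number of merged regions on chromosomes 1 to 19 by how many of the 4 libraries with Smc3 deletion (vertical axis) and of the 4 libraries without it (horizontal axis) had a peak there; shading is the log10 of the number. The red and blue frames mark the 141 and 161 regions that met the rule, and the top right cell holds the 35155 regions with a peak in all 8 libraries.

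Few regions separated the sides, and more lay just outside the rule than inside it. As the grid of call numbers shows, 482 regions had a peak in all 4 libraries with the deletion and in 1 library without it. Another 643 had a peak in 3 libraries with the deletion and in none without. In the reverse direction, 473 regions had a peak in all 4 libraries without the deletion and in 1 with it, and 483 in 3 libraries without and in none with. The 302 regions formed a small part of the 7313 autosomal regions called in exactly 4 libraries, 1.93% open with the deletion and 2.20% open without it. The duplication contrast took larger shares of these 7313 regions. Of all 109822 autosomal regions, the rule applied to Flt3-ITD in place of Smc3 selected 975 (0.888%) open with the duplication and 1277 (1.16%) open without it. The contrast that sets control and Smc3 fl/del Flt3-ITD against both single genotypes gave 396 regions (0.361%) and 37 (0.0337%).

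The library that kept a region outside the rule was often the one with a long or a short list. Of the 482 regions with 1 peak on the side without the deletion, control replicate 1 held that peak in 235, Flt3-ITD replicate 1 in 109, Flt3-ITD replicate 2 in 72 and control replicate 2 in 66. Control replicate 1 has the longest list of that side, 74525 peaks. Of the 643 regions that lacked 1 peak on the side with the deletion, Smc3 del/+ replicates 1 and 2 lacked it in 234 and 220, and Smc3 fl/del Flt3-ITD replicates 1 and 2 in 92 and 97. The Smc3 del/+ lists are the shorter ones on that side. Among the 483 regions one call short of the reverse pattern, the missing library was Flt3-ITD replicate 2 in 152 and control replicate 1 in 80, with the other two between. The lone peak in the 473 regions open without the deletion lay in an Smc3 fl/del Flt3-ITD library in 155 and 131 regions, against 101 and 86 for the Smc3 del/+ libraries. The part that list length plays in the rule was not tested. When each list was cut to its top 61953 peaks by score, the split moved from 141 against 161 to 99 against 237. This lowered the share open with the deletion from 46.7% to 29.5%. Only 41 of the 141 members and 89 of the 161 still met the rule there, so many of the selected regions were others.

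Most of the peaks in these regions ranked low in their own lists. The authors gave each peak a score between 0.99 and 1, whose meaning is not stated, so only its rank within a list was used. A score of exactly 1 is common, held by 27.2% to 34.9% of the peaks of each list, and these ties share a percentile of 82.5 to 86.4. In the 141 regions open with the deletion, the median percentile of the score was 17.6 in Smc3 del/+ replicate 1 and 21.4 in replicate 2. It was 21.4 in Smc3 fl/del Flt3-ITD replicate 1 and 20.1 in replicate 2. The genotypes overlapped, with 19.5 ± 2.69 for Smc3 del/+ and 20.8 ± 0.896 for Smc3 fl/del Flt3-ITD (SD, n = 2). In the 161 regions open without the deletion, the medians were 27.4 and 23.7 in the control libraries and 24.5 and 23.3 in the Flt3-ITD libraries. These overlapped as well, with 25.5 ± 2.64 for control and 23.9 ± 0.840 for Flt3-ITD (SD, n = 2). With 2 libraries against 2, an exact two-sided permutation test cannot go below p = 0.333, so no test of the genotypes within a side is given.

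Regions with a peak in all 8 libraries give a reference for rank in the same lists. Their mean percentile, taken per region over its libraries, had a median of 74.0, against 22.0 for the regions open with the deletion, 25.7 for those open without it and 26.2 for all regions called in exactly 4 libraries. Only 6 of the 141 regions and 5 of the 161 had a mean above the 50th percentile (4.26% and 3.11%), whereas 11.9% of the 4-library regions did. The 4-library regions include both Flt3-ITD sets, where 172 of 975 (17.6%) and 403 of 1277 (31.6%) did. The 11.9% is thus no measure of 4-library regions apart from that contrast. Genotypes within a side were apart in 1 direction of the Flt3-ITD contrast and overlapped in the other. In the 975 regions open with Flt3-ITD, the Smc3 fl/del Flt3-ITD libraries ranked the peaks at 48.2 ± 0.470 and the Flt3-ITD libraries at 22.1 ± 1.07 (median percentile, SD, n = 2). In the 1277 open without it, control had 38.5 ± 14.6 (48.8 and 28.2) and Smc3 del/+ 49.5 ± 2.63 (47.7 and 51.4). The sets of the third contrast had median mean percentiles of 23.9 and 24.4, near those of the Smc3 members, with 2.02% and 18.9% above the 50th.

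**Figure D2:**
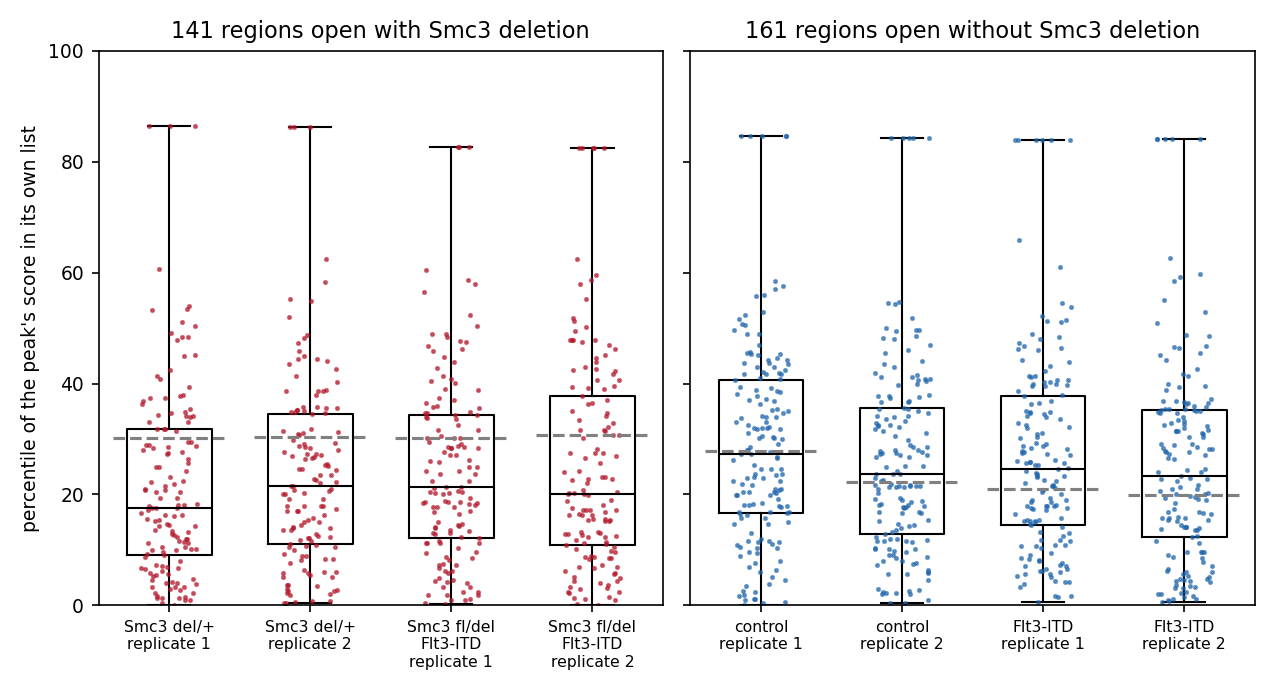
Percentile of the score of each region's highest-scoring peak within its own list (vertical axis, percent) in the 4 libraries that had a peak, for regions open with Smc3 deletion (left) and open without it (right). Points are regions, boxes span the 25th to 75th percentile with the median as a line, whiskers reach the extremes, and grey dashes give the median over all regions called in exactly 4 libraries; most points lie low, apart from a line of ties at a score of exactly 1.

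Peak width in the regions open with the deletion stayed near that of the whole lists. The median was 423 and 422 bp in the Smc3 del/+ libraries, where all autosomal peaks had medians of 434 and 432 bp, and 410 and 417 bp in the Smc3 fl/del Flt3-ITD libraries, where they had 405 and 406 bp. In the regions open without the deletion it was 425 and 395 bp in control (409 and 408 bp over all peaks) and 453 and 447 bp in Flt3-ITD (422 and 424 bp over all peaks). The Flt3-ITD libraries thus lay above both control libraries, 450 ± 4.24 against 410 ± 21.2 bp (SD, n = 2). Merged regions had larger median widths than their peaks, 982 and 1018 bp.

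Peaks of different libraries could be offset within a region, and in some regions 1 wide peak spanned the whole of it. At chr5:134790440-134791622, for example, the Smc3 fl/del Flt3-ITD replicate 2 peak had the full width of 1183 bp. In 92 of the 141 regions open with the deletion, at least 1 bp was shared by peaks of all 4 libraries, and the median shared stretch over the 141 was 127 bp. In the reverse direction, 116 of 161 regions had a stretch common to all 4, with a median of 168 bp. The others were chains, in which each peak overlapped some of the rest but no base was covered in every library. The region chr2:92325656-92326489, open with the deletion, shows such a chain. Smc3 del/+ replicate 2 and Smc3 fl/del Flt3-ITD replicate 2 had peaks that ended at 92326130 and 92326077, and Smc3 del/+ replicate 1 had one that began at 92326199.

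Some regions had a peak of the absent side close by, at shares below and above that of all 4-library regions. A peak of at least 1 absent-side library lay within 1 kb of the region in 29 of 141 regions open with the deletion (20.6%, 95% exact Clopper-Pearson interval 14.2% to 28.2%) and in 57 of 161 open without it (35.4%, 28.0% to 43.3%). The intervals treat regions as independent draws, although the rule chose them from calls of the same libraries. They cover counting error only, not spread between libraries, and do not serve to compare the directions. With both Smc3 fl/del Flt3-ITD libraries left out, the shares were 37.5% and 21.0%. That setting leaves 4 absent-side libraries for the first share and 2 for the second, so they are unlike measures. Under the free-text labels the split is the Flt3-ITD contrast. There the order turned, with 17.6% in the regions open with the duplication and 15.9% in those open without it. Among all regions called in exactly 4 libraries the share was 28.0%. In the contrast of control and Smc3 fl/del Flt3-ITD with both single genotypes it was 22.5% of 396 and 54.1% of 37. By library, 18 and 18 of the 141 regions had a control peak within 1 kb, and 20 and 15 had one in Flt3-ITD replicates 1 and 2. Of the 161, 33 and 28 had one in Smc3 del/+ replicates 1 and 2, and 44 and 43 in the Smc3 fl/del Flt3-ITD libraries. All 4 absent-side libraries had a nearby peak at 11 and 19 regions. With this distance added to the rule, 112 regions open with the deletion (0.102% of autosomal regions) and 104 open without it (0.0947%) were left, so the order of the directions turned.

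**Figure D3:**
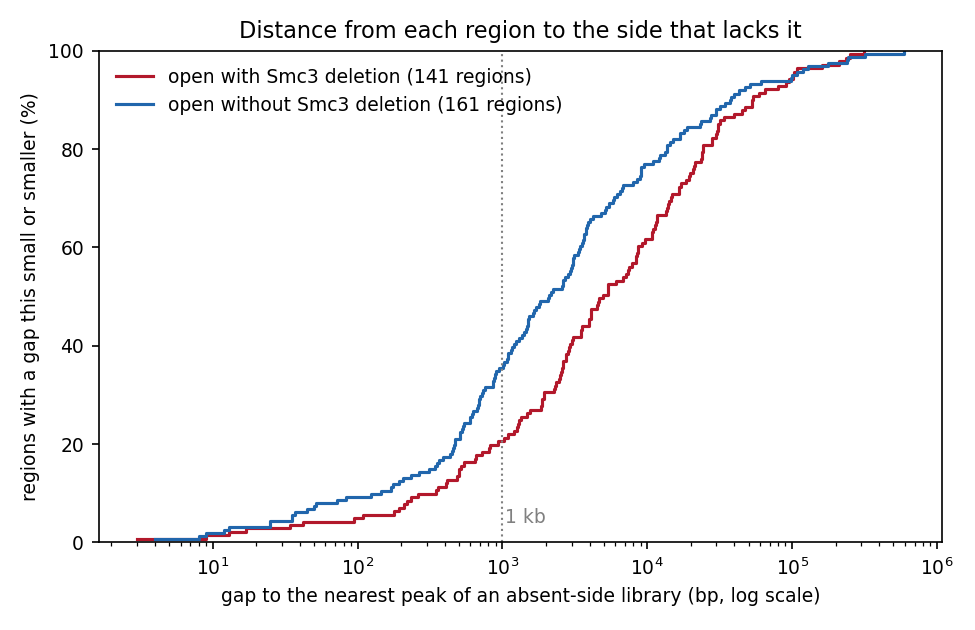
Share of regions (vertical axis, percent) whose gap to the nearest peak of any absent-side library was no larger than the value on the horizontal axis (bp, log scale), for the 141 regions open with Smc3 deletion (red) and the 161 open without it (blue). At the dotted line of 1 kb the curves stand at 20.6% and 35.4%.

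The median gap to the nearest absent-side peak was 4985 bp for regions open with the deletion and 2098 bp for those open without it, with 3175 bp over all regions called in exactly 4 libraries between them. Gaps over 50 kb occurred at 16 of 141 and 12 of 161 regions, and at 346 of the 7313. The neighbour within 1 kb was itself often a shared site. In 13 of the 29 cases open with the deletion, and in 21 of the 57 open without it, the region holding the nearest absent-side peak was called in all 8 libraries, so the side with the member had an extra peak beside a common one. In 2 cases of each direction, the neighbour was called in all 4 absent-side libraries and in none on the other side. These 4 regions form 2 pairs, in which peaks of the same rank sat at different places on the sides. With merging across gaps of up to 200 bp, none of the 4 met the rule.

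The pair on chromosome 11 was the closest, with 9 bp between its members, chr11:6174596-6175052 (open with the deletion) and chr11:6175062-6175449 (open without it). Peaks lay at 6174596-6174999 and 6174695-6175028 in Smc3 del/+ replicates 1 and 2, and at 6174671-6175007 and 6174659-6175052 in Smc3 fl/del Flt3-ITD replicates 1 and 2. In control they lay at 6175120-6175449 and 6175120-6175427, and in Flt3-ITD at 6175126-6175426 and 6175062-6175418. All 8 peaks had a score of exactly 1. That peaks of the sides do not overlap follows from the rule and from the choice of the pair. The mean midpoints lay 430 bp apart.

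The pair on chromosome 12 also placed the sides apart, over a longer distance and with less even peaks. Its members were chr12:103605492-103605943 (with) and chr12:103606136-103606973 (without), 192 bp apart. Smc3 del/+ peaks spanned 103605580-103605943 and 103605492-103605921, and Smc3 fl/del Flt3-ITD peaks spanned 103605541-103605844 and 103605560-103605940. Control peaks spanned 103606619-103606973 and 103606531-103606802, and Flt3-ITD peaks 103606549-103606867 and 103606136-103606600. Again every score was 1, and the mean midpoints lay 907 bp apart, a separation that the choice of the pair likewise fixes. The member open without the deletion was a chain with no base common to its peaks, where that on chromosome 11 had 293 bp. Its midpoints had an SD of 186 bp over the libraries, against 19.6 bp on chromosome 11. A further member of high score, chr12:103521053-103522119 (without), lay in the same tract, so 3 members fell within 85921 bp. Its peaks were 1067 and 353 bp wide in control and 282 and 349 bp in Flt3-ITD, all with a score of 1. Every library with the deletion had a peak at its side, at gaps of 25 and 119 bp in Smc3 del/+ and 27 and 523 bp in Smc3 fl/del Flt3-ITD.

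**Figure D4:**
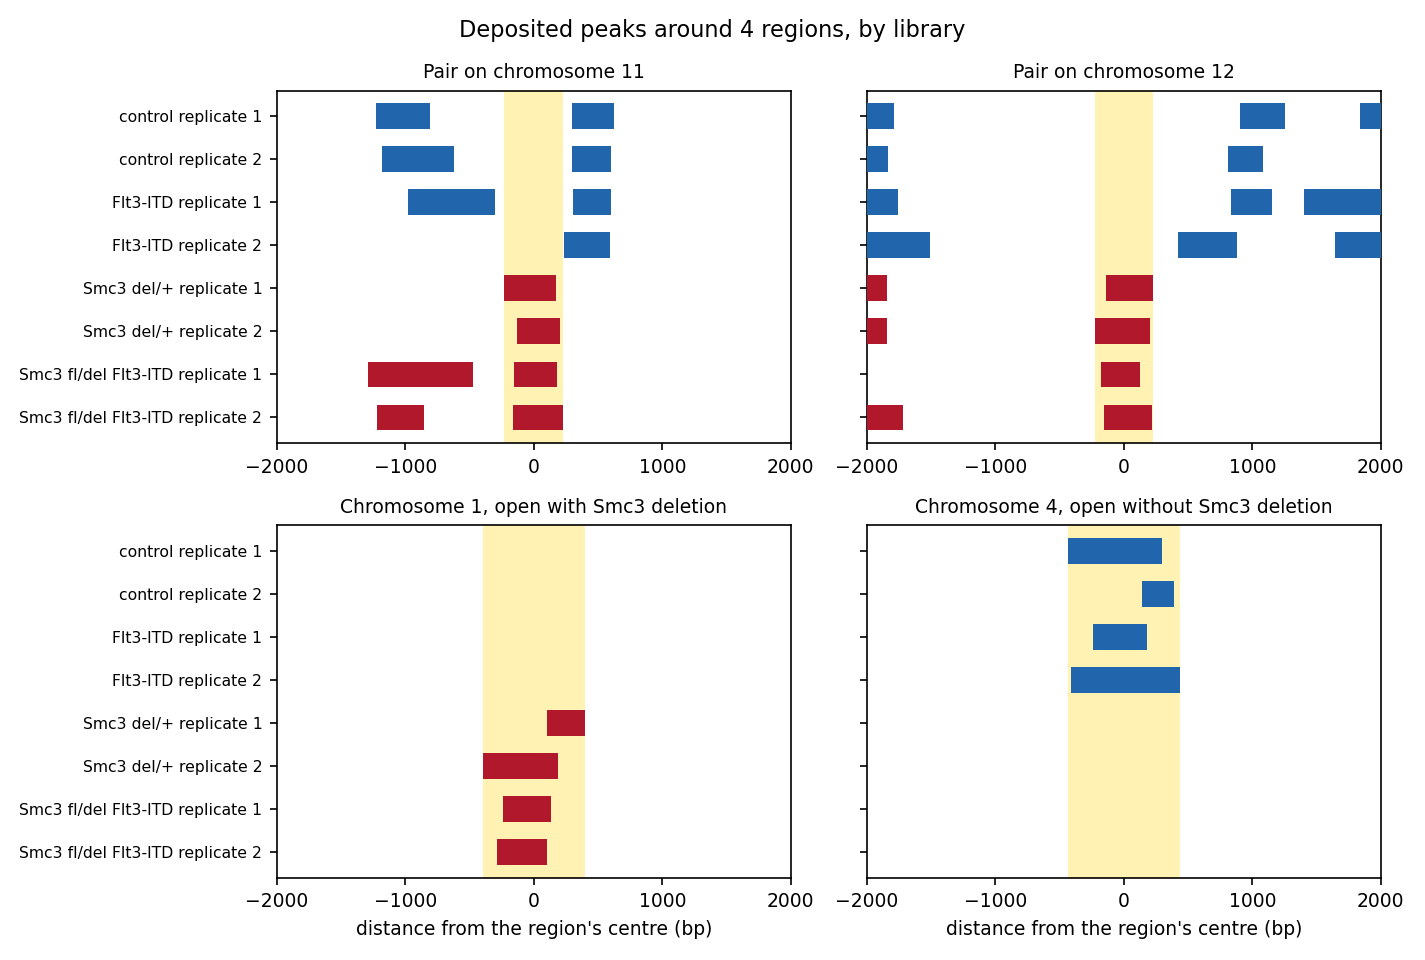
Deposited peaks (bars) in the 8 libraries within 2 kb of 4 members, against distance from the member's centre (bp); red bars are libraries with Smc3 deletion, blue bars those without, and yellow marks the member. The upper panels show both pairs, centred on the member open with the deletion, with the blue peaks of its partner to the right; the lower panels show members on chromosomes 1 and 4 with no absent-side peak within 200 kb.

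High-scoring members of the deletion side all had an absent-side peak close by, but only the pair members had a neighbour called on the absent side alone. By the naming rule, the 6 with the highest mean percentile were both pair members just given and those on chromosomes 5, 4, 2 and 13, and all 6 had an absent-side peak within 1 kb. At chr5:134790440-134791622 the percentiles were 86.4 and 86.3 in Smc3 del/+ but 18.7 and 82.5 in Smc3 fl/del Flt3-ITD, and all 4 absent-side libraries had a peak 220 to 235 bp away. That neighbour, chr5:134788958-134790219, was called in all 4 libraries without the deletion and in 1 with it. At chr4:44181294-44181717 the percentiles were 45.2 and 54.8 in Smc3 del/+ and 82.7 and 82.5 in Smc3 fl/del Flt3-ITD, so both genotypes were separate there. It stood 262 to 286 bp from peaks of every absent-side library, in a region called in all 8. At chr13:101263294-101264022 the same order held, with 31.7 and 30.8 against 58.0 and 82.5, and absent-side peaks lay 178 to 288 bp away. The chain on chromosome 2 ranked between 55.3 and 62.4, and control replicate 2 alone had a peak within 1 kb, at 208 bp. Among the 112 members of this direction with no absent-side peak within 1 kb, the highest mean percentile was 42.7.

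Of the 6 members open without the deletion with the highest mean percentile, 4 had an absent-side peak within 1 kb: both pair members, the chromosome 12 member beside them and 1 on chromosome 1. At chr1:88369533-88369956 all 4 peaks had a score of 1, with widths of 357 and 350 bp in control and 424 and 358 bp in Flt3-ITD. The peaks shared 340 bp. Smc3 del/+ replicate 1 had a separate peak 83 bp away, and the nearest peaks of the other deletion libraries were 1631, 1639 and 1811 bp away. At chr11:29449470-29450145 all 4 scores were 1 as well, and the absent-side gaps were 1095 to 1238 bp, to a site called in all 8 libraries. Its 4 peaks were offset, between 207 and 471 bp wide, and no base was common to them. The next by rank, chr4:8683294-8684225, had percentiles of 42.9 and 49.6 in control and 38.7 and 58.5 in Flt3-ITD, and the nearest deletion-side peak was 8488 bp away. Scores of 1 in all 4 libraries occurred at 2 of 141 (1.42%) and 5 of 161 members (3.11%), against 152 of all 7313 regions called in exactly 4 libraries (2.08%). In the sets chosen the same way they occurred at 5 of 975 and 7 of 1277 regions for Flt3-ITD, and at 4 of 396 and 4 of 37 for the third contrast.

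Members far from any absent-side peak ranked low to middling. The 4 farthest open with the deletion were chr4:29453288-29454157 (311350 bp), chr13:48355835-48357050 (251497 bp), chr1:83072484-83073282 (235966 bp) and chr3:3308218-3308659 (210750 bp). On chromosome 1 the percentiles were 34.2 and 41.3 in Smc3 del/+ and 7.37 and 5.67 in Smc3 fl/del Flt3-ITD, which did not overlap. On chromosome 3 they were 2.92, 31.3, 36.4 and 31.6 in Smc3 del/+ replicates 1 and 2 and Smc3 fl/del Flt3-ITD replicates 1 and 2, so the low value was that of a single library. On chromosome 4 they were 7.02 and 17.0 in Smc3 del/+, and on chromosome 13 they ran from 1.79 to 42.6 over the 4 libraries.

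The 4 farthest open without the deletion were chr14:114600222-114601058 (589468 bp), chr17:40057814-40058572 (320465 bp), chr4:51512129-51513050 (244885 bp) and chr4:113605136-113606010 (239205 bp). The last had percentiles of 58.5 and 32.2 in control and 35.0 and 21.6 in Flt3-ITD, and each deletion library had its nearest peak between 239205 and 239665 bp away. On chromosome 14 the percentiles were 16.3 and 35.5 in control and 14.5 and 35.5 in Flt3-ITD. At chr4:51512129-51513050 they ran from 5.22 to 39.6, and on chromosome 17 from 4.14 to 33.2. Control and Flt3-ITD overlapped at all 4.

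Regions open with the deletion lay in parts of the genome with fewer peaks, in every library. Within 50 kb of them, the mean number of other peaks ran from 3.95 (Flt3-ITD replicate 2) to 5.41 (Smc3 fl/del Flt3-ITD replicate 1), 4.54 ± 0.581 over the 8 libraries (SD). Around regions open without the deletion it ran from 6.49 to 8.09, at 7.39 ± 0.642, and around all regions called in exactly 4 libraries from 5.94 to 7.41, at 6.56 ± 0.623. In each library taken alone the order was the same, with the fewest around regions open with the deletion and the most around those open without it. The same regions were counted in all 8 libraries, so the repeated order is not 8 independent results. The SD is a spread over libraries, not over regions. Other contrasts of the design were not counted this way, so the order may not be particular to the Smc3 split. In both groups of regions, libraries with the deletion overlapped those without it, and the long Smc3 fl/del Flt3-ITD lists were at or near the top. Regions with no other peak within 50 kb were 12 to 25 of 141 by library in one direction and 12 to 18 of 161 in the other.

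**Figure D5:**
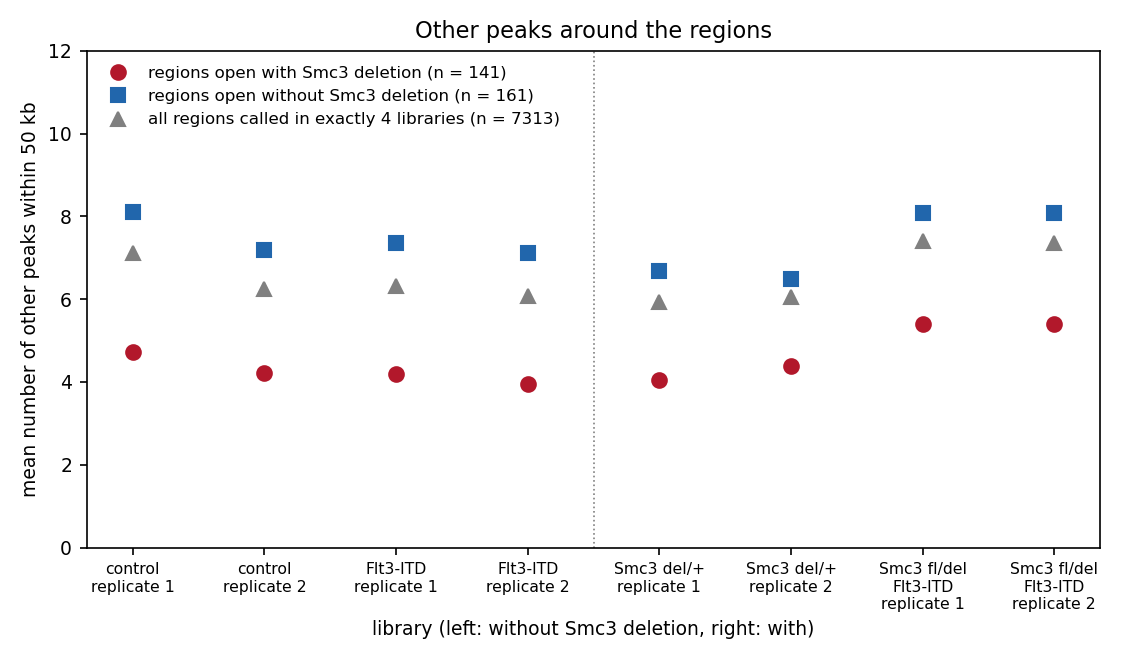
Mean number of other peaks within 50 kb of a region (vertical axis) in each library (horizontal axis), for regions open with Smc3 deletion (red circles), regions open without it (blue squares) and all autosomal regions called in exactly 4 libraries (grey triangles). In each of the 8 libraries the red circle is lowest and the blue square highest.

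Members were spread over all autosomes. Chromosome 11 held the most, 29 (13 open with the deletion and 16 without), followed by chromosome 6 with 28, and chromosome 16 the fewest, 5. Per 1000 merged regions this was 2.75 over all autosomes, with the highest rate on chromosome 18 (4.52, 16 regions) and the lowest on chromosome 16 (1.31). Directions were uneven both ways on single chromosomes, at small counts. Chromosomes 17 and 19 had 2 and 1 regions open with the deletion and 9 and 7 open without it. Chromosomes 5, 10 and 16 had 13, 8 and 4 open with it and 7, 4 and 1 open without it. All of these were named after their values were seen. Few lay side by side: 2 of the 141 and 2 of the 161 had another member of the same direction within 10 kb. These were chr11:20555544-20557057 with chr11:20561425-20562398, open with the deletion, and chr14:95041000-95041758 with chr14:95042119-95043292, open without it, named here after their values were seen. Apart from both pairs above, 1 further couple of opposite direction lay within 10 kb: chr5:140193287-140194695 (with) and chr5:140201825-140202923 (without), 7129 bp apart, also named after their values were seen.

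Membership changed with how peaks were merged and ranked. Cutting each peak to its central 200 bp gave 187 and 230 regions, but only 63 of the 141 and 68 of the 161 members were among them. Merging across gaps of up to 200 bp gave 142 and 154 regions, with 131 of the 141 and 137 of the 161 members still meeting the rule. Both pairs, chr12:103521053-103522119, chr1:88369533-88369956 and chr13:101263294-101264022 did not meet it there. Using the upper 50% of each list by score gave 96 and 128 regions, of which 3 and 5 overlapped members. Members that met the rule with equal peak numbers, with merging across gaps of 200 bp and with central 200 bp alike numbered 18 of 141 and 36 of 161. Of these, 15 and 26 had no absent-side peak within 1 kb. None met the rule in the upper 50% of the lists, which for the 15 and 26 follows from mean percentiles below 50. The following of these members were named after their values were seen. Of the 15, chr15:52338343-52338814 had the highest mean percentile, 42.6, with 283 bp common to its 4 peaks. Of the 26, chr4:8683294-8684225, given above, was the highest at 47.4, followed by chr13:52675865-52677126 at 45.6 with 503 bp in common.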

How the data were processed

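Members and lists were chosen with earlier results of these data known. The deposited files are 1 peak list per library with 6 columns and no header. The deposited score, a value of the authors for each peak, was used only for ranks within a list. Per the submitters' processing notes, Bowtie and the mm9 build were used. No caller or setting for peaks is named in the labels.

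Peaks overlapping by 1 bp or more were merged, and each library with a peak in a region counted as calling it. Gaps were measured from a region's edge to the nearest peak of a library. In each library the highest-scoring peak of a region gave its percentile, with ties sharing the mean rank. Planned gene and motif work needed an mm9 genome and was not done. Named regions were, per direction, the 6 with the highest mean percentile (ties by width) and the 4 farthest from an absent-side peak. Merging, calling and distances were tested on simulated data. Other settings varied list length, score limit, merging, libraries and labels. Software was matplotlib 3.10.9, scipy 1.17.1, pandas 2.3.3 and numpy 2.4.6 under Python 3.11.15.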

Additional observations from a re-analysis of the deposited data

How the results depend on the processing

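Counts of regions open with and without Smc3 deletion became 975 and 1277 with groups as in the free-text descriptions, which is the Flt3-ITD contrast. With 1 library left out, which makes the rule less strict, there were between 209 and 376 regions open with the deletion, where each library but control replicate 2 moved the count by over 1.5 times. It gave between 242 and 322 open without it, where each of the 8 did. The order of the directions turned without control replicate 1 (365 against 242), Smc3 del/+ replicate 1 (376 against 268) and Smc3 del/+ replicate 2 (364 against 253). With both Smc3 fl/del Flt3-ITD libraries left out, a setting chosen after seeing the data, the rule set 2 libraries with the deletion against 4 without. The counts were then 1004 and 1839. Requiring no absent-side peak within 1 kb left 104 regions open without the deletion.

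The share of regions open with the deletion that had an absent-side peak within 1 kb was 14.1% with merging across 200 bp gaps, 72.2% with the central 200 bp of each peak, 7.09% within 200 bp, 50.4% within 5 kb and 37.5% with both Smc3 fl/del Flt3-ITD libraries left out. Leaving out 1 library gave 17.3% to 29.7%. For regions open without it the share was 22.7% with the upper 50% of each list, 25.3% with 200 bp gaps, 78.3% with the central 200 bp, 15.9% under the descriptions, 12.4% within 200 bp, 67.1% within 5 kb and 21.0% with both Smc3 fl/del Flt3-ITD libraries left out. Leaving out 1 library gave 35.1% to 42.1%. The share was thus higher without the deletion than with it in the main setting. The order turned under the descriptions, which give the Flt3-ITD contrast. With both Smc3 fl/del Flt3-ITD libraries left out, the shares count peaks in 4 and in 2 absent-side libraries, so their order cannot be read. The causes were not tested. No paired analysis was possible because the results come from no test. Peak lists hold no read numbers, so a missing peak cannot be told from a weak one.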

Other observations

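The counts above leave out the sex chromosomes. Of 4239 merged regions of X, the same rule selected 11 open with Smc3 deletion and 31 open without it. Of 472 merged regions of Y, it selected 1, open without the deletion. Of the X regions open with the deletion, 4 lay within one tract between chrX:47953206-47953772 and chrX:47975866-47976663, with mean score percentiles of 32.7 to 42.0. Of the 31 open without it, 18 lay between positions 120361781 and 122627300 of X, at 10.4 to 43.2. Both windows were chosen after their values were seen, and the merged regions within each were not counted.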
